A study of Mus musculus with 12 samples.

Results

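The genes described here encode proteins of the cytosolic ribosome. They were taken by name: an array row had to be annotated to exactly 1 gene, whose symbol was Rpl or Rps followed by a digit, Rpsa, or Rplp0 to Rplp2. S6 kinase genes (Rps6k), symbols holding "-ps" and names ending in a lower-case l were left out, and each gene was represented by its row of highest mean level. This gave 57 genes of the 19937 that have a row of their own, 34 of the large subunit and 22 of the small subunit. The remaining one, Rps19bp1, encodes a partner protein of Rps19 and was counted in neither subunit. Rps23rg1, a mouse retrogene copy of Rps23, and Rpl7l1, a paralogue of Rpl7, also carry names that fit and were kept.

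Gene expression was measured in lineage-depleted (Lin-) bone marrow, the marrow left after magnetic removal of cells bearing B220, CD11b, GR1, Ter119, CD2 or NK1.1. The arrays were 6 from E4bp4-/- mice and 6 from E4bp4+/+ mice, 1 mouse per array, on the Affymetrix GeneChip Mouse Gene 1.0 ST platform. E4bp4 is the older name of the gene Nfil3, whose product is a transcription factor of the basic leucine zipper class. The strain, age and sex of the mice, the deleted part of the gene and whether animals were littermates are not given in the sources used here. No drug and no further allele is named for either genotype. Values are log2 levels, and each difference is E4bp4-/- minus E4bp4+/+. Differences were tested with limma over 29541 array rows, and p-values measure the spread between these mice.

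A ribosome is built from 4 ribosomal RNAs and a set of proteins that are made in near-equal numbers. The small subunit reads the mRNA, and the large subunit joins the amino acids and passes the new chain out through a tunnel. mRNAs of ribosomal proteins start with a run of pyrimidines (a 5′ terminal oligopyrimidine, or TOP, motif), through which mTORC1 adjusts their translation. Blood formation is sensitive to their dose: loss of a single copy of one of several of these genes causes Diamond-Blackfan anaemia in people, a failure of red cell production.

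The targeted gene was compared first. Nfil3 ranged over 6.34, 6.38 and 6.92 (lowest, median, highest) in E4bp4-/- arrays, against 6.94, 7.11 and 7.67 in E4bp4+/+ arrays, with no overlap. The means were 6.49 ± 0.23 in E4bp4-/- and 7.18 ± 0.25 in E4bp4+/+ marrow (SD, n = 6 each). The difference was -0.68 ± 0.13 (SE), with a limma adjusted p of 0.14. Exact permutation of the 12 arrays (two-sided) gave p = 0.0022, the smallest possible with 924 permutations. Since the deleted part is unknown, the place of the probes in relation to it was not checked.

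One array stood apart before any comparison. E4bp4-/- replicate 1 had a mean level of 7.35 for 3 Y-linked genes and 6.08 for Xist, whereas the other 11 arrays lay between 4.29 and 4.48 and between 12.10 and 12.65. Its neutrophil granule genes (Elane, Mpo, Prtn3, Ngp, Camp, Ltf, S100a8 and S100a9) averaged 11.29, and those of the other arrays at most 9.91. Results are therefore also given without it. Array medians ran between 6.5 and 6.62, and correlations between arrays over all rows between 0.986 and 0.9955.

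The cell make-up of the fraction was checked with marker lists. Of the depleted antigens, Klrb1c (NK1.1) stayed under the 20th percentile on every array, and Cd2, Ptprc (B220), Itgam (CD11b) and Ly6g (GR1) did not pass 0.05 even unadjusted. Progenitor markers were measured with 6 genes, and 4 of them (Flt3, Gata2, Kit and Myb) had an unadjusted limma p under 0.05 and a higher value in E4bp4-/- arrays, where 8.47 percent of all rows did. Their list mean ran between 10.62 and 11.10 in E4bp4-/- and between 10.50 and 10.81 in E4bp4+/+ arrays. All 6 erythroid markers had a lower mean in E4bp4-/- arrays with the values as deposited, 0 of them with an unadjusted p under 0.05, and their list mean ran between 10.83 and 11.27, against 11.05 and 11.44 in E4bp4+/+ arrays. The megakaryocyte list mean was 9.94 to 10.83 in E4bp4-/- and 9.81 to 10.40 in E4bp4+/+ arrays, with 3 of 6 genes at an unadjusted p under 0.05 and higher. The B cell list mean was 6.55 to 7.05 in E4bp4-/- and 6.48 to 6.73 in E4bp4+/+ arrays, with 3 of 6 genes higher at that p. Plasma cell markers averaged 7.99 to 8.98 in E4bp4-/- and 7.78 to 8.21 in E4bp4+/+ arrays, with 4 of 6 higher. Stromal markers averaged 9.40 to 9.67 in E4bp4-/- and 9.42 to 9.87 in E4bp4+/+ arrays, with 0 of 6 at that p in either direction. The part of these lists in the ribosomal protein values was not tested.

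The promoter sequences of 46 of the 57 genes were found in RefSeq (GRCm38.p6), with 53 start sites in all. Those of Rpl21, Rpl23a, Rpl29, Rpl30, Rpl36, Rpl7, Rpl8, Rplp1, Rps14, Rps20 and Rps29 were not in the table used. A set of 6 letter strings was searched between 250 bases before and 50 bases after each start: CGGAAG, the core bound by ETS factors such as GABP, AAGATGG, the YY1 core, TCTCGCG, the core of a box shared by promoters of housekeeping genes, and TTATGTAA and TTACGTAA, forms of the site that E4BP4 itself binds, all on both strands, and CTTTC on the transcribed strand within 25 bases of the start, as found in pyrimidine-rich starts. The windows below run 60 bases before to 20 bases after the start, 5′ to 3′ along the transcript. They show the 3 genes of lowest p that have a RefSeq promoter (Rps3a1, Rpl5 and Rpl38), Rpl4, whose genotypes did not overlap, and Rpl41 and Rpsa, which had the highest p-values. Capitals mark the ETS core, the TCTCGCG box and the pyrimidine string, and a box on the other strand reads CGCGAGA.
Rps3a1 (chr3:86142649-86142728, minus strand): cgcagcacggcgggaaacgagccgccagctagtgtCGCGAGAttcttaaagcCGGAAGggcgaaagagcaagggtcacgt
Rpl5 (chr5:107900468-107900547, plus strand): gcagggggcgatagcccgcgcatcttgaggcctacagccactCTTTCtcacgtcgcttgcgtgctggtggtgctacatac
Rpl38 (chr11:114668520-114668599, plus strand): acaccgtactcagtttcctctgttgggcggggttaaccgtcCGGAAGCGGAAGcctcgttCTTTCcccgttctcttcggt
Rpl4 (chr9:64173327-64173406, plus strand): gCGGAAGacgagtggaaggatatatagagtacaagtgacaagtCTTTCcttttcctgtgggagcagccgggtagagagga
Rpl41 (chr10:128549149-128549228, minus strand): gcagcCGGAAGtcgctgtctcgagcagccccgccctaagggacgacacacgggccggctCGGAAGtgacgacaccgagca
Rpsa (chr9:120127706-120127785, plus strand): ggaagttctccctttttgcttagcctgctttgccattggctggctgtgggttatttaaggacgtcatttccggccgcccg

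CGGAAG was present at 34 of the 53 ribosomal protein starts (64.2%), against 21.1% of 21263 starts of protein-coding genes, as in the windows of Rps3a1, Rpl38, Rpl4 and Rpl41. TCTCGCG was present at 14 starts (26.4%, against 3.48%) and AAGATGG at 5 (9.4%, against 6.24%). CTTTC near the start was found at 12 (22.6%, against 6.03%), among them those of Rpl5, Rpl38 and Rpl4. Neither TTATGTAA (0.894% of all starts) nor TTACGTAA (0.136%) was found at any of the 53, which says only that these letters are not in these windows. The 32 genes with CGGAAG had a median difference of -0.035 and the 14 without it -0.014. For TCTCGCG the medians were -0.056 with it (13 genes) and -0.023 without it (33 genes), and for CTTTC -0.035 (12 genes) and -0.027 (34 genes). No test was made of these medians. They are of the brightest rows as deposited, and whether each row reports the locus with that promoter was not checked.

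Differences between the genotypes were small throughout the family. No ribosomal protein gene passed an adjusted p of 0.05 in limma, as was so for all 29541 rows (0 percent called). The mean level was lower in E4bp4-/- arrays for 41 genes and higher for 16, but 31 were lower and 26 higher after quantile normalisation, and 50 lower and 7 higher after centring each array on its median. At an unadjusted limma p under 0.05, 6 genes were lower, 10.5% of the 57, where 6.39 percent of all rows were. None was higher at that p, where 8.47 percent of all rows were. Ribosomal protein transcripts are bright on the array, and rows at or above a level of 9.16, the 10th percentile of the 57, are a closer background. Of those 6856 rows, 12.2% were lower and 3.41% higher at that p, and 63.2% had a lower mean in E4bp4-/- arrays, against 71.9% of the 57 genes. These bright rows were on average still less bright than the 57 genes (10.53 against 11.79 in E4bp4+/+ arrays). At 12 or more, 75.0% of the 32 ribosomal protein genes and 71.9% of all rows had a lower mean. The share of ribosomal protein genes lower at that p was thus close to that of bright rows with the values as deposited. It was also close after quantile normalisation, with 4 genes (7.0%, against 8.2% of bright rows), but not after centring, with 21 genes (36.8%, against 24.7% of bright rows). With the mean of all rows of a gene in place of its brightest row, 11 of the 57 genes were lower at that p. Centring lowered the difference of every row by the same amount, since array medians were on average higher in E4bp4-/- arrays. In bulk RNA, fewer cells of a type and less RNA per cell cannot be told apart.

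The median difference over the 57 genes was -0.032, with a range of -0.25 to 0.078. It was 0.015 over all rows and -0.026 over the bright ones. After quantile normalisation the medians were -0.012 for the 57 genes and -0.0038 for bright rows, and after centring -0.072 and -0.066. Averaged per array, the 57 genes stood at 11.76 ± 0.032 in E4bp4-/- and 11.79 ± 0.0074 in E4bp4+/+ marrow (SD, n = 6 each), a difference of -0.034 ± 0.013 (SE). Without E4bp4-/- replicate 1 it was -0.025, with 40 genes lower, 17 higher and 5 lower at an unadjusted p under 0.05. In that fit 43.4% of all rows had a lower mean, and 5.14% were lower at that p. Without Rps19bp1, Rps23rg1 and Rpl7l1, 40 of 54 genes had a lower mean, the same 6 among them at that p.

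**Figure D1:**
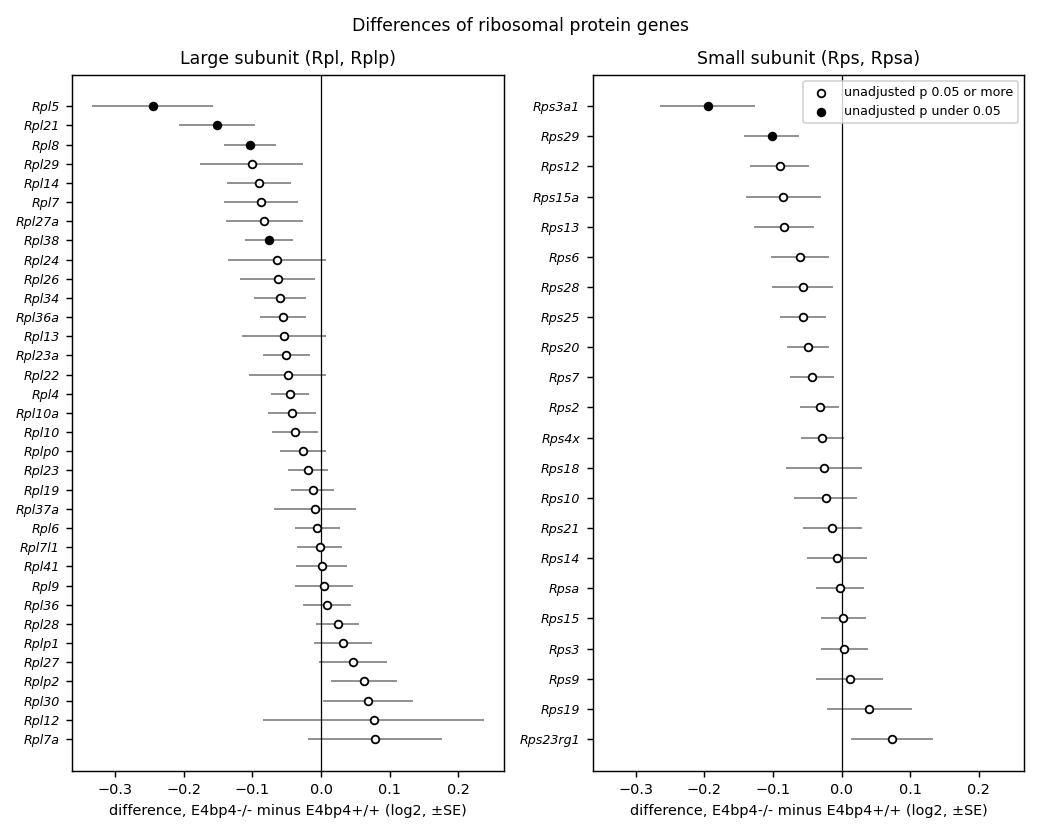
Difference of each gene (x axis, log2, E4bp4-/- minus E4bp4+/+, bars SE of the limma fit) for the 34 large subunit genes and the 22 small subunit genes, ordered by size; filled points have an unadjusted p under 0.05. Filled points lie only left of 0, Rpl5 at -0.25 and Rps3a1 at -0.20 being the farthest, and 41 of all 57 genes, Rps19bp1 (at 0.014, not drawn) included, have a negative difference with the values as deposited.

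The 2 subunits gave nearly the same picture. Of the large subunit genes, 24 had a lower mean in E4bp4-/- arrays and 10 a higher one, 4 of them lower at an unadjusted p under 0.05 (Rpl5, Rpl21, Rpl8 and Rpl38), with a median difference of -0.040. Of the small subunit genes, 17 were lower and 5 higher, 2 of them at that p (Rps3a1 and Rps29), with a median of -0.030. As shares, 11.8% of large and 9.1% of small subunit genes were lower at that p, against 12.2% of bright and 6.39 percent of all rows. A lower mean was found for 70.6% and 77.3%, against 63.2% of bright rows, all with the values as deposited.

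Per array, the large subunit mean ran between 11.72 and 11.83 in E4bp4-/- and between 11.81 and 11.83 in E4bp4+/+ arrays. The small subunit mean ran between 11.77 and 11.84, against 11.82 and 11.87. The genotypes overlapped in both. E4bp4-/- replicates 1 and 3 had the lowest 2 values of each. With the values as deposited, E4bp4-/- replicates 1, 2, 3 and 6 lay below all E4bp4+/+ arrays in the large subunit mean. In the small subunit mean, E4bp4-/- replicates 1, 3, 4 and 6 did.

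The difference of means was -0.033 ± 0.017 (SE) for the large and -0.037 ± 0.013 for the small subunit (-0.020 for the large subunit without E4bp4-/- replicate 1). Large minus small per array was -0.016 ± 0.030 in E4bp4-/- and -0.020 ± 0.024 in E4bp4+/+ marrow (SD, n = 6 each). The difference between genotypes, 0.0038 ± 0.016 (SE), was smaller than its error, so no imbalance between the subunits was measured. Replicate 1 of each genotype had the lowest value of this quantity, -0.066 in E4bp4-/- and -0.069 in E4bp4+/+.

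**Figure D2:**
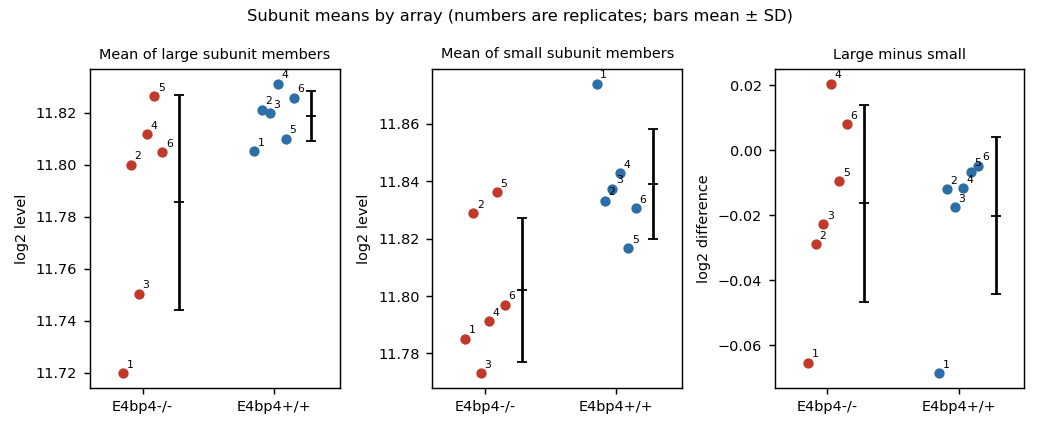
Mean log2 level of the large subunit genes, of the small subunit genes, and their difference, for each of the 12 arrays (points, numbered by replicate; bars mean ± SD), E4bp4-/- left of E4bp4+/+. Both subunit means of E4bp4-/- replicates 1, 3 and 6 lie below all E4bp4+/+ arrays, those of 1 and 3 being the lowest. So do the large subunit mean of E4bp4-/- replicate 2 and the small subunit mean of replicate 4. The third panel shows 1 low array in each genotype.

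The lower values were not spread evenly over the E4bp4-/- arrays. Averaged over the 57 genes, though, only E4bp4-/- replicate 5 (11.80) reached the E4bp4+/+ range of 11.78 to 11.80. With the values as deposited, the lowest of a gene's 12 values fell in an E4bp4-/- array for 44 genes and in an E4bp4+/+ array for 13. Replicate 3 held the lowest value of 21 genes and replicate 1 that of 13, while replicate 2 held none. E4bp4-/- replicates 1 and 3 were below a gene's own mean for 46 and 40 of the 57, and the other E4bp4-/- arrays for 23 to 33. In E4bp4+/+ arrays that count was 17 to 26. The highest value fell in an E4bp4+/+ array for 37 genes, 13 of them in replicate 1, and in an E4bp4-/- array for 20, 10 of them in replicate 5. The genes share the same 12 arrays, and these counts were not made for bright rows or after scaling. Bright rows also averaged lower, at 10.51 ± 0.015 in E4bp4-/- and 10.53 ± 0.016 in E4bp4+/+ arrays (SD, n = 6 each).

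**Figure D3:**
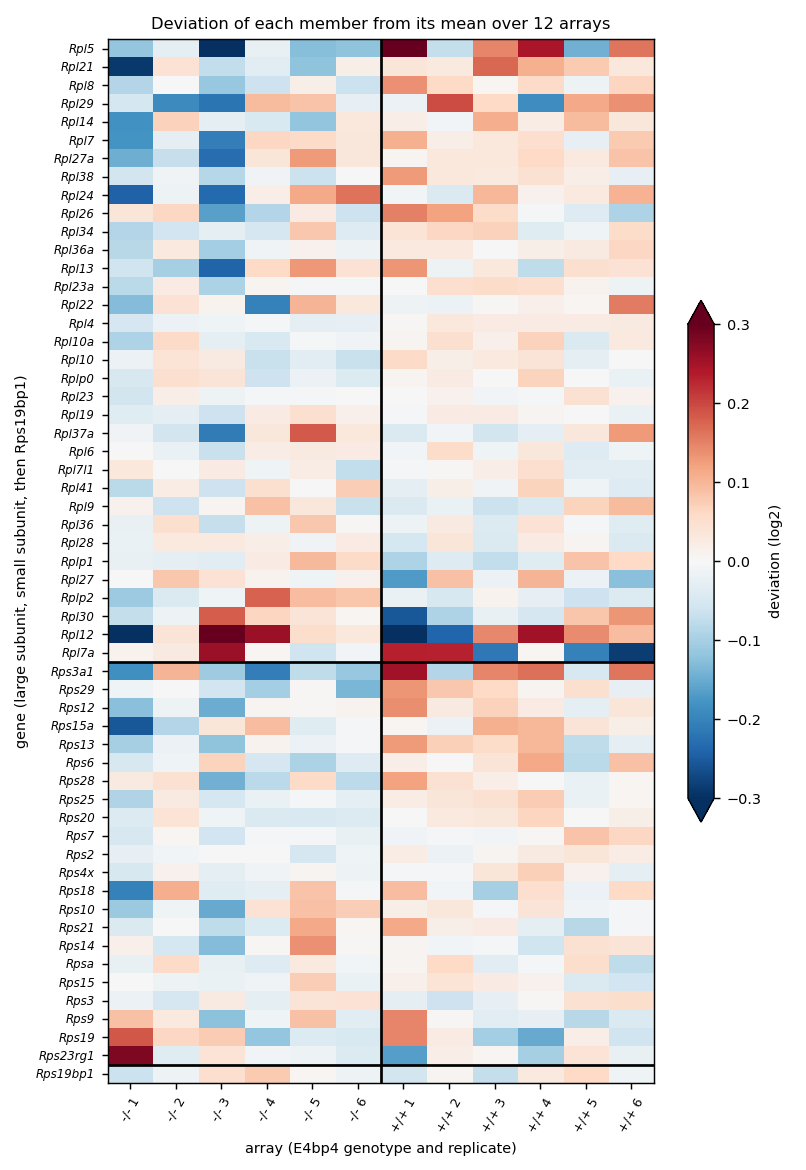
Deviation of each of the 57 genes (rows, large subunit, small subunit, then Rps19bp1) from its mean over 12 arrays (columns, E4bp4-/- replicates left of E4bp4+/+ replicates), in log2 units. The columns of E4bp4-/- replicates 1 and 3 hold the most low values, with 46 and 40 genes below their mean.

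Levels varied little within a genotype. The median within-genotype SD was 0.064 for the ribosomal protein genes, 0.094 for bright rows and 0.11 for all rows. Rpl4 had the smallest (0.013, also the smallest of all rows tested) and Rpl12 the largest (0.31).

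Rps3a1 had the lowest p of the family. It encodes the small subunit protein eS1, which lies near the exit of the mRNA path and contacts initiation factor eIF3. Its level was 9.12, 9.22 and 9.43 (lowest, median, highest) in E4bp4-/- arrays, against 9.24, 9.49 and 9.59 in E4bp4+/+ arrays. The ranges overlapped through E4bp4-/- replicates 2 and 5 and E4bp4+/+ replicates 2 and 5. The difference was -0.20 ± 0.069 (SE), a 1.14-fold lower level, with an adjusted p of 0.24 in limma and an exact permutation p of 0.019.

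Rpl5 had the largest difference. Its protein joins Rpl11 and the 5S rRNA in a particle that enters the large subunit and that can bind Mdm2, which releases p53, when ribosome assembly stalls; Rpl11 had no row of its own. The level of Rpl5 was 12.26, 12.47 and 12.56 in E4bp4-/- arrays, against 12.44, 12.74 and 12.99 in E4bp4+/+ arrays. E4bp4+/+ replicates 2 and 5 lay within the E4bp4-/- range and the other E4bp4+/+ arrays above it. The difference was -0.25 ± 0.088 (SE), 1.19-fold, with a limma adjusted p of 0.25 and an exact permutation p of 0.032. It ran between -0.30 and -0.19 when each array was left out, with an unadjusted p under 0.05 each time.

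Rpl8 encodes uL2, a protein close to the site where peptide bonds form. It stood at 12.12, 12.17 and 12.25 in E4bp4-/- arrays, against 12.21, 12.29 and 12.37 in E4bp4+/+ arrays. E4bp4-/- replicates 2 and 5 reached into the E4bp4+/+ range. The difference was -0.10 ± 0.038 (SE), with an adjusted p of 0.26 in limma and an exact permutation p of 0.011.

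Rpl21, a large subunit protein whose human gene is mutated in a form of hereditary hair loss, stood at 11.29, 11.53 and 11.63 in E4bp4-/- arrays, against 11.61, 11.64 and 11.75 in E4bp4+/+ arrays. E4bp4-/- replicate 1 was the lowest and replicate 2 alone reached the E4bp4+/+ range. The difference was -0.15 ± 0.056 (SE), with a limma adjusted p of 0.26 and an exact permutation p of 0.0087. Without replicate 1 it was -0.11.

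Rps29 and Rpl38 made up the rest of the genes at an unadjusted p under 0.05. Rps29, a zinc-binding protein of the small subunit head and a Diamond-Blackfan anaemia gene, stood at 11.81, 11.91 and 11.95 in E4bp4-/- arrays, against 11.92, 12.004 and 12.08 in E4bp4+/+ arrays. Of the E4bp4+/+ arrays, replicate 6 alone lay within the E4bp4-/- range. Its difference was -0.10 ± 0.040 (SE), with an adjusted p of 0.28 in limma. The unadjusted p stayed under 0.05 in 9 of the 12 fits that each left out 1 array. Rpl38, whose loss in mice patterns the skeleton abnormally through the translation of Hox mRNAs, stood at 12.75, 12.80 and 12.83 in E4bp4-/- arrays, against 12.81, 12.86 and 12.96 in E4bp4+/+ arrays. Only E4bp4+/+ replicate 6 lay within the E4bp4-/- range. The difference was -0.076 ± 0.035 (SE), with an adjusted p of 0.34 in limma, and its unadjusted p stayed under 0.05 in 2 of the 12 fits. Another row of Rpl38 was higher at an unadjusted limma p under 0.05, with a difference of 0.19 (below).

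Rpl4 was the single gene whose genotypes did not overlap on its brightest row, 1 of 57 and with the lower values in E4bp4-/- arrays. Of all rows, 1.27 percent did not overlap, 0.65 percent with the lower values in E4bp4-/- arrays, and of bright rows 1.66% did so in that direction. After quantile normalisation 0 of the 57 genes were lower in E4bp4-/- arrays without overlap, and after centring 10.5% were, against 4.61% of bright rows. Its protein sends a loop into the exit tunnel of the large subunit. It stood at 12.27, 12.29 and 12.31 in E4bp4-/- arrays, against 12.32, 12.34 and 12.35 in E4bp4+/+ arrays, a gap far under the family's median within-genotype SD of 0.064. The difference was -0.046 ± 0.028 (SE), 1.03-fold, with an exact permutation p of 0.0022 and an adjusted p of 0.45 in limma, which draws the error estimate of a row toward that of all rows.

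**Figure D4:**
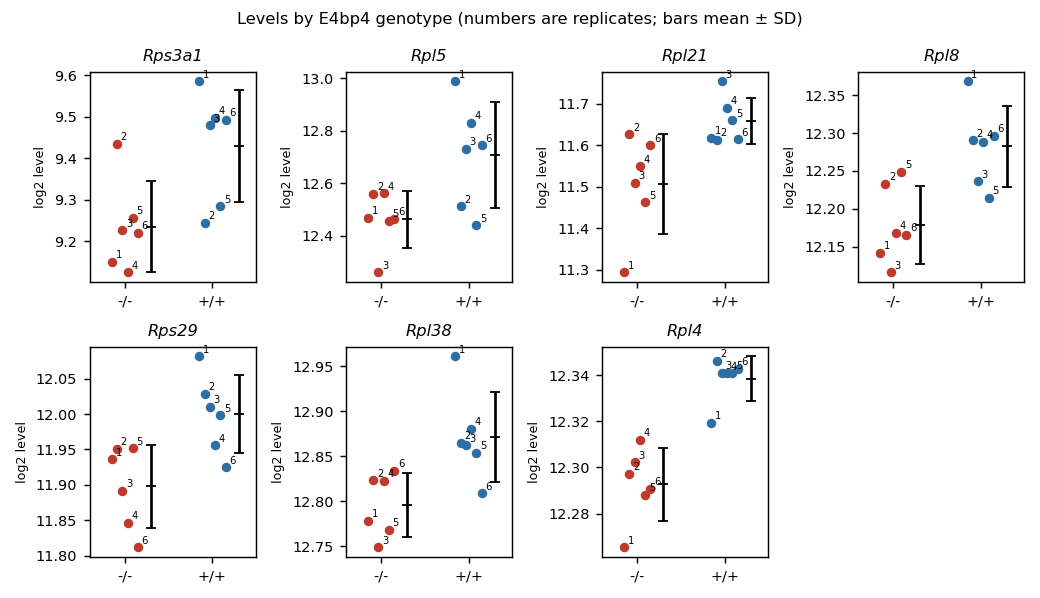
Log2 level of Rps3a1, Rpl5, Rpl21, Rpl8, Rps29, Rpl38 and Rpl4 in each array (points, numbered by replicate; bars mean ± SD), E4bp4-/- left of E4bp4+/+, each panel on its own scale. The genotypes overlap in every panel except that of Rpl4, where the highest E4bp4-/- array is at 12.31 and the lowest E4bp4+/+ array at 12.32.

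The 2 next genes in order of p on the lower side were Rps12 of the small subunit head, with a difference of -0.090 ± 0.043 (SE), and Rpl14 of the large subunit, with -0.090 ± 0.047. Neither passed an unadjusted p of 0.05. On the higher side, the 8 genes of lowest p had differences between 0.024 and 0.078, and 0 of them passed it. Rplp2, of the stalk, stood at 7.15, 7.29 and 7.43 in E4bp4-/- arrays, against 7.19, 7.22 and 7.26 in E4bp4+/+ arrays, a difference of 0.062 ± 0.048 (SE) with E4bp4-/- arrays on both sides of the E4bp4+/+ range. Rps23rg1 differed by 0.074 ± 0.060, which was 0.025 without E4bp4-/- replicate 1. The others were Rpl30 (0.068 ± 0.065), which in yeast controls the splicing of its own transcript, Rpl27 (0.046 ± 0.050), Rpl7a (0.078 ± 0.098), Rpl28 (0.024 ± 0.031), Rplp1 (0.032 ± 0.042) and Rps19 (0.041 ± 0.062). Rpl28 and Rplp1 turned negative when arrays were centred on their medians. Rplp2, Rpl7a and Rps23rg1 were the 3 genes of the family with a mean level under 8. Of all rows under 8, 35.2% had a lower mean in E4bp4-/- arrays, and 10.8% were higher at an unadjusted p under 0.05.

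The stalk of the large subunit, made of Rplp0 and dimers of Rplp1 and Rplp2, recruits the elongation factors. Rplp0 stood at 13.73 ± 0.047 in E4bp4-/- and 13.75 ± 0.030 in E4bp4+/+ marrow (SD, n = 6 each), a difference of -0.026 ± 0.034 (SE) that was 0.0004 after quantile normalisation. Rplp1 and Rplp2 had positive differences (above), that of Rplp1 being -0.0083 after centring. The difference of Rplp2, whose row lay under a level of 8, was 0.090 ± 0.044 without E4bp4-/- replicate 1. None of the 3 passed an unadjusted p of 0.05.

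Proteins that line the exit tunnel or surround its mouth had a row of their own for 5 of 9 genes. With the values as deposited, all 5 had a lower mean in E4bp4-/- arrays, as did 63.2% of bright rows. The median of the 5 was -0.049. Rpl23a, a docking point of the signal recognition particle, differed by -0.051 ± 0.034 (SE), and Rpl26, at the rim, by -0.063 ± 0.054. Rpl22, whose loss in mice blocks alpha-beta T cell development, differed by -0.049 ± 0.056, and Rpl19 by -0.012 ± 0.032, which was 0.0079 after quantile normalisation. None of these 5, Rpl4 included, passed an unadjusted p of 0.05 in limma.

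Genes of the mRNA channel and decoding site were measured for 5 of 7, with a median of -0.0021. Rps28, near the mRNA exit, differed by -0.056 ± 0.044 (SE), and Rps2, at the mRNA entry, by -0.032 ± 0.029. Rps3, also at the entry, differed by 0.0042 ± 0.035, Rps15, near the decoding site, by 0.0027 ± 0.033, and Rpsa, also known as the laminin receptor, by -0.0021 ± 0.035. The signs of Rps3, Rps15 and Rpsa changed with the scaling or with a single array left out. Rps2 had the narrowest spread of this group, at 13.38, 13.42 and 13.43 in E4bp4-/- arrays, against 13.41, 13.45 and 13.46 in E4bp4+/+ arrays, which overlapped through E4bp4+/+ replicate 2.

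The Diamond-Blackfan anaemia list held 19 genes, of which 9 had a row of their own. Of these, 7 had a lower mean in E4bp4-/- arrays, with a median of -0.056. At an unadjusted p under 0.05, 2 of the 9 were lower (Rpl5 and Rps29), where 6.39 percent of all rows and 12.2% of bright rows were. The share lower was 77.8%, against 71.9% over the 57 genes. Rps15a differed by -0.085 ± 0.055 (SE), Rps7 by -0.043 ± 0.032 and Rps10 by -0.023 ± 0.046, which was 0.0047 after quantile normalisation. Rps19, the most often mutated gene of the disease, stood at 11.86, 11.99 and 12.16 in E4bp4-/- arrays, against 11.83, 11.96 and 12.12 in E4bp4+/+ arrays, and the genotypes lay over each other. The list mean per array ran between 11.83 and 11.93 in E4bp4-/- and between 11.91 and 12.01 in E4bp4+/+ arrays. The erythroid marker list, given above, also had a lower mean in E4bp4-/- arrays, and its part in these values was not tested.

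Rps14, the gene whose loss of 1 copy underlies the anaemia of the 5q- syndrome in people, differed by -0.0068 ± 0.044 (SE), which was 0.020 after quantile normalisation. Rps6, the substrate of the S6 kinases, stood at 13.72, 13.78 and 13.89 in E4bp4-/- arrays, against 13.74, 13.85 and 13.93 in E4bp4+/+ arrays. Its difference was -0.060 ± 0.042 (SE), within overlapping ranges. The X-linked genes were 3 of 4 measured, Rpl36a (-0.055 ± 0.034), Rpl10 (-0.038 ± 0.034) and Rps4x (-0.028 ± 0.031), and their values without E4bp4-/- replicate 1 were -0.044, -0.038 and -0.021.

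Ribosomal protein genes have many processed copies in the mouse genome, and several array rows carry the same gene name. The 57 genes had 188 rows, with more than 1 row for 37 genes and up to 10 for Rpl23a. Rows of 1 gene can share sequence with each other and with copies elsewhere, so they are not independent, and which locus a row reports was not checked. Of the 131 rows besides the brightest, 127 were tested, of which 112 had a lower mean in E4bp4-/- arrays and 15 a higher one, with a median of -0.074. At an unadjusted p under 0.05, 36 of them were lower (28.3%) and 3 higher (2.36%), where 6.39 and 8.47 percent of all rows were. The number lower at that p was 31 after quantile normalisation and 51 after centring, and ran between 26 and 40 when each array was left out in turn. None passed an adjusted p of 0.05 in limma. As a share, 28.3% of these rows and 10.5% of the brightest rows were lower at that p as deposited, 24.4% and 7.0% after quantile normalisation, and 40.2% and 36.8% after centring. The contrast between the brightest and the other rows was thus small after centring, and no test of it was made because the rows share sequence.

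By level, rows of these genes under 8 were lower at that p in 28.6% of 21 cases (3.55% of all rows of that level), and those at 8 to 10 in 34.3% of 35 (10.7%). Rows at 10 to 12 were so in 22.4% of 67 (12.5%), and those at 12 or more in 14.8% of 61 (10.1%). The excess over other rows was smallest at 12 or more, where 32 of the 61 rows were the brightest of their gene.

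**Figure D5:**
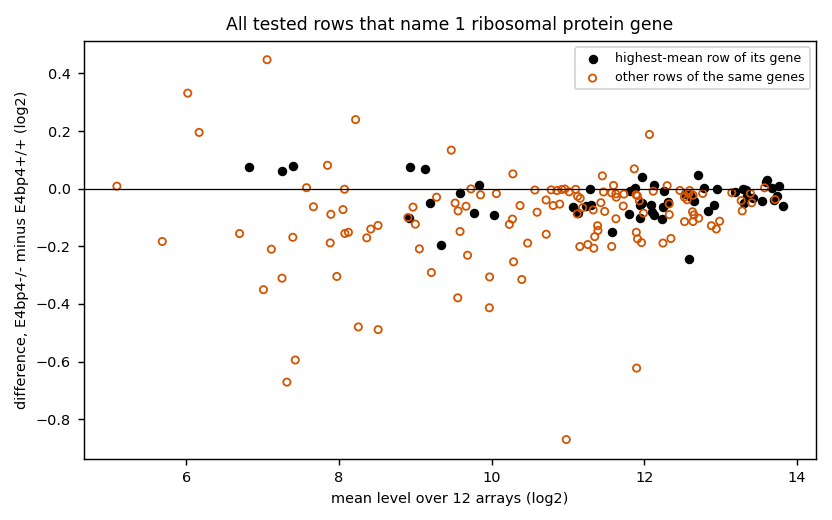
Difference of each tested row that names 1 ribosomal protein gene (y axis, log2, E4bp4-/- minus E4bp4+/+) against its mean level over 12 arrays (x axis, log2); filled points are the brightest row of each gene, open points the other rows. The brightest rows lie between -0.25 and 0.078, and the other rows spread between -0.87 and 0.45, most of them below 0.

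Some genes held rows that disagreed, and the examples that follow were chosen after their values were seen. In all, 18 genes had rows on both sides of 0. The 5 rows of Rpl10 ran from -0.21 to 0.45, with 1 row lower and 1 higher at an unadjusted p under 0.05. Rpl38 had 4 rows between -0.62 and 0.19, with 2 rows lower and 1 higher at that p. Its higher row kept an unadjusted limma p under 0.05 in all 12 fits that each left out 1 array. Its lowest row stood at 10.18, 11.76 and 12.12 in E4bp4-/- arrays, against 11.90, 12.22 and 12.47 in E4bp4+/+ arrays, and its difference was -0.34 without E4bp4-/- replicate 5, the array at 10.18. Rps13 had the lowest row of all, at 8.78, 10.81 and 11.06 in E4bp4-/- arrays, against 11.15, 11.40 and 11.71 in E4bp4+/+ arrays, with no overlap. There too replicate 5 was the low array, and the difference of -0.87 ± 0.33 (SE, adjusted p = 0.27 in limma) was -0.52 without it. The brightest row of Rps13 differed by -0.084 ± 0.044.

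In other genes most rows lay on 1 side. The 3 tested rows of Rpl5 differed by -0.25, -0.19 and -0.11, each with an unadjusted p under 0.05. All 7 rows of Rps6 had a negative difference with the values as deposited, 3 of them at that p. Of the rows of Rpl21, 5 of 8 tested were lower at that p, as were 5 of 8 rows of Rpl9, although the brightest row of Rpl9 differed by 0.0039 ± 0.042. Rpl21 also had 2 rows with a higher mean, up to 0.081. Rpl23a had 4 of 10 rows lower at that p, and its rows spread widely, between -0.35 and 0.33, with 2 of them above 0.

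A further 19 ribosomal protein names occurred only in rows that name several genes. These 17 rows were not assigned to a gene. With the values as deposited, all 17 had a lower mean in E4bp4-/- arrays, as did 63.2% of bright rows. At an unadjusted limma p under 0.05, 1 of them was lower, where 12.2% of bright rows were. Their median was -0.056, with a range of -0.19 to -0.0044.

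The other genes of ribosome production were taken from 6 lists, and 0 of their genes passed an adjusted p of 0.05. Transcription of the ribosomal RNA genes was represented by 15 genes of RNA polymerase I and its factors, of which 0 had an unadjusted limma p under 0.05, with a median of -0.013. Ubtf, which opens the ribosomal DNA, differed by -0.063 ± 0.043 (SE), and the polymerase subunits Polr1d and Znrd1 by -0.056 ± 0.055 and 0.045 ± 0.051.

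Of 37 assembly factors, 22 had a lower mean in E4bp4-/- arrays, with a median of -0.012, and 3 (8.11%) were lower at an unadjusted p under 0.05, near the 6.39 percent of all rows and under the 12.2% of bright rows. Brix1, needed for large subunit assembly, stood at 9.88, 10.002 and 10.08 in E4bp4-/- arrays, against 10.04, 10.20 and 10.28 in E4bp4+/+ arrays. Its difference was -0.19 ± 0.051 (SE), with a limma adjusted p of 0.19, and the ranges overlapped narrowly. Npm1, the nucleolar chaperone nucleophosmin, stood at 11.28, 11.67 and 11.74, against 11.72, 11.81 and 11.88 in E4bp4+/+ arrays, a difference of -0.19 ± 0.072. Gnl2, a GTPase of large subunit maturation, differed by -0.10 ± 0.047.

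Translation factors whose mRNAs carry the TOP motif were measured for 13 genes, with a median of -0.030. With the values as deposited, 12 of them had a lower mean in E4bp4-/- arrays, as did 63.2% of bright rows. Eif3e, a subunit of initiation factor 3, was the 1 gene lower at an unadjusted p under 0.05, where 12.2% of bright rows were. It stood at 10.71, 10.80 and 10.92 in E4bp4-/- arrays, against 10.82, 10.98 and 11.04 in E4bp4+/+ arrays, a difference of -0.15 ± 0.050 (SE) with an adjusted p of 0.22 in limma. Tpt1 differed by -0.054 ± 0.031 and Eif3a by -0.067 ± 0.041. The list mean ran between 12.13 and 12.18 in E4bp4-/- and between 12.16 and 12.22 in E4bp4+/+ arrays, with overlap.

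The list of 13 genes that control TOP mRNAs through mTORC1 had a median of 0.018. Of these genes, 1 was lower at an unadjusted p under 0.05, where 12.2% of bright rows were. It was Rheb, the GTPase that activates mTORC1, at 9.73 ± 0.085 in E4bp4-/- and 9.88 ± 0.11 in E4bp4+/+ marrow (SD, n = 6 each), a difference of -0.16 ± 0.057 (SE, adjusted p = 0.25 in limma). Eif4e, the cap-binding protein, differed by -0.11 ± 0.057 and Mtor, the kinase itself, by 0.094 ± 0.049.

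The list of transcription regulators of ribosome production and the p53 checkpoint had 8 genes with a row and a median of 0.039. Mycn, a Myc family factor that drives ribosome production, stood at 6.99, 7.16 and 7.34 in E4bp4-/- arrays, against 6.64, 6.96 and 7.10 in E4bp4+/+ arrays, a difference of 0.26 ± 0.079 (SE) with an adjusted p of 0.21 in limma. Gabpa, the ETS subunit that binds the CGGAAG core, stood at 9.75, 9.77 and 9.85, against 9.83, 9.87 and 9.99 in E4bp4+/+ arrays, a difference of -0.11 ± 0.037 with an adjusted p of 0.23. Both overlapped between genotypes. Sp1, a factor of GC-rich promoters, differed by 0.065 ± 0.033.

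Ribosomal proteins and paralogues whose names fall outside the rule were tested for 5 genes, with a median of 0.0050 and 0 genes at an unadjusted p under 0.05. Fau, which encodes Rps30 fused to a ubiquitin-like protein, differed by 0.033 ± 0.041 (SE). Rps27l and Rpl10l, both paralogues, differed by -0.058 ± 0.051 and -0.13 ± 0.10.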

How the data were processed

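RNA of Lin- bone marrow from 12 mice was hybridised to arrays, and the authors normalised the data with RMA16 in GeneSpring GX version 11, per the series design text, and deposited 1 log2 value per row. The log2 scale was read from the values, which lie between 3.18 and 14.33. The probe annotation and genome build behind them are not given in the sources used here. Scanner files were not used. RMA gives all arrays near-equal distributions, which would hide a shift of most genes in 1 direction. Probe number and array number limit the precision.

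Groups came from the genotype labels. Of 34760 rows, 29541 reached the 20th percentile of at least 1 array. Platform annotation named 1 gene for 21640 rows, several for 1321 and none for 11799. The test was that of limma 3.58.1 (R 4.3.3, lmFit and eBayes without covariates), adjusted over all rows by the Benjamini-Hochberg method, and single genes also by two-sided exact permutation. On data simulated for this comparison the fit was tested before use. Named genes were those of the role groups, the 8 of lowest p in each direction and the 3 of lowest p per pathway list. The ribosomal protein genes and all lists were chosen with earlier results of these data known. Promoters were RefSeq windows of GRCm38.p6. Alternatives were another filter or none, 2 scalings, array weights, a variance trend, the replicate block, sex covariate, each array left out, the mean of all rows of a gene, genes without the 3 partner or paralogue names and, added after seeing the data, rows naming several genes. Same-numbered arrays of the genotypes correlated between -0.033 and 0.462 in their deviations. The same-numbered E4bp4+/+ array was the best match of E4bp4-/- replicates 1 (0.462), 5 (0.185) and 6 (0.171), but not of replicates 2, 3 and 4. The numbers were not taken as pairs in the main fit, and the replicate block is the alternative that uses them. Whether same-numbered arrays share a batch was not tested.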

Additional observations from a re-analysis of the deposited data

Results flagged for a closer look

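Within each genotype, 124 sets of 6 values were examined for a lowest or highest array whose gap to the next exceeded 0.625 of the range. Such a gap arises by chance in about 1 of 20 sets, or 6.2 of these, and 11 were found, 7 in E4bp4-/- and 4 in E4bp4+/+ marrow.

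E4bp4-/- replicate 1 was high for Rps23rg1, at 7.10 with the other E4bp4-/- arrays between 6.78 and 6.86. It was low for Rpl12, at 8.46 with the others between 8.96 and 9.26. E4bp4+/+ replicate 1 was lower still for Rpl12, at 8.31, with the other E4bp4+/+ arrays between 8.69 and 9.19. E4bp4-/- replicate 3 was low for Rpl5, at 12.26 with the others between 12.46 and 12.56, and high for Rpl7a, at 7.66 with the others between 7.34 and 7.43. E4bp4-/- replicate 5 was high for Rpl34, at 11.32 with the others between 11.15 and 11.21, and for Rps15, at 12.86 with the others between 12.76 and 12.78. E4bp4-/- replicate 2 was high for Rps20, at 13.35 with the others between 13.27 and 13.30.

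E4bp4+/+ replicate 1 was high for Nfil3, at 7.66 with the other E4bp4+/+ arrays between 6.94 and 7.18. It was low for Rpl4, at 12.32 with the others between 12.34 and 12.35, and for large minus small subunit mean, at -0.07, where the others lay between -0.02 and -0.00. E4bp4+/+ replicate 6 was high for Rpl22, at 9.34 with the others between 9.17 and 9.20. The cause of these gaps was not tested.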

How the results depend on the processing

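Scaling turned the sign of a minority of the named genes. After quantile normalisation Rpl19 (0.0079), Rplp0 (0.0004), Rps10 (0.0047), Rps14 (0.0205) and Rpsa (0.0195) turned positive, and 3 genes of the pathway lists were higher at an unadjusted p under 0.05, where 1 was as deposited. With arrays centred on their medians Rpl28 (-0.0157), Rplp1 (-0.0083), Rps15 (-0.0374) and Rps3 (-0.0360) turned negative, 21 ribosomal protein genes were lower at that p, the mean difference was -0.0742 over all, -0.0735 over large and -0.0773 over small subunit genes, the TOP list median was -0.0703, and 15 pathway genes were lower (6 as deposited). Among all rows under that p, 57.0% were higher as deposited, 46.9% after quantile normalisation and 22% after centring. Rpsa was 0.0022 with array weights and 0.0021 with the sex covariate. These fits made 5 and 4 calls over all rows at an adjusted p of 0.05, and the covariate 2 higher pathway genes. Sex was read from the Y-linked genes, and the covariate marked E4bp4-/- replicate 1 alone. That fit thus repeats the one without this array and is no separate check. The mean of all rows of a gene gave 11 lower ribosomal protein genes of 57, -0.0609 over all and -0.0681 over the small subunit. As deposited, 6.39 percent of all rows and 12.2% of bright rows were lower at that p. The share of bright rows was not computed for the replicate block or the left-out arrays. With the replicate block, 4 ribosomal protein genes were lower at that p and 2 pathway genes higher, with 0 calls; it changed no other call. With each array left out, calls ran between 0 and 4 (4 without E4bp4-/- replicate 1), lower ribosomal protein genes between 4 and 7, their mean difference between -0.0415 and -0.0246, higher pathway genes between 1 and 2, Rps10 between -0.0433 and 0.0048, Rps14 between -0.0351 and 0.0183, Rps15 between -0.0119 and 0.0112, Rps3 between -0.0077 and 0.0150, and Rpsa between -0.0174 and 0.0095. Centring subtracts an array's median from all its rows, so it moved the difference of every row by the same amount. The median difference went from 0.0152 to -0.0250 over all rows and from -0.0320 to -0.0721 over the 57 genes. Array medians ran between 6.5425 and 6.6158 in E4bp4-/- and between 6.5015 and 6.5649 in E4bp4+/+ arrays. Why the medians differed, and the cause of the other shifts, was not tested. Of 280 values of 35 named genes under the other alternatives, the sex covariate among them, 269 kept their sign and stayed on the same side of the adjusted threshold. Another filter or none, the variance trend and the replicate block leave each difference unchanged, so its sign was fixed under them. All 11 reversals came under the 2 scalings, array weights or the sex covariate. The lowest limma adjusted p of the family was 0.24 as deposited, far from the threshold.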
